A study of Homo sapiens with 4 samples.

Results

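The nuclear genes for mitochondrial ribosomal proteins were taken from the RNA-seq table by symbol, as every symbol that starts with MRPL or MRPS and goes on with a number and, at most, the letter A, B or C. This rule found 78 of the 27800 gene symbols, 49 MRPL genes named for the large subunit and 29 MRPS genes named for the small subunit. The cells were MOLM-13, an established human acute myeloid leukaemia line. The sgKAT6A group (2 libraries, replicates 1 and 2) was transduced with lentivirus for CRISPR-Cas9 targeting of KAT6A, a histone acetyltransferase gene, and the EV group (2 libraries, replicates 1 and 2) was transduced with a CRISPR-Cas9 lentivirus labelled EV. The study asked how loss of KAT6A alters transcription in these leukaemia cells. What EV contains, the guide, the number of guides, the time of harvest, and whether the cells were a pool or a clone are all not given in the sources used here. Nothing in the labels says that the replicates came from separate cultures, and the p-values therefore rest on a spread between libraries that may be technical.

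Mitochondria keep their own ribosome, which translates the few messages of the mitochondrial genome, all of them for membrane subunits of the respiratory chain and ATP synthase. Its RNAs are made inside the organelle, while all of its proteins are encoded in the nucleus, made in the cytosol and imported. Many of these proteins descend from bacterial ribosomal proteins and others were added in mitochondria. Acute myeloid leukaemia cells often depend on mitochondrial translation.

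All values are TPM, a measure of transcript abundance that is scaled by transcript length, so that levels can be set side by side between genes. TPM keeps no read depth, and the depth of these libraries is unknown. KAT6A itself was at 12.2 and 10.8 TPM in sgKAT6A cells, against 16.2 and 16.7 TPM in EV cells. Both sgKAT6A libraries were below both EV libraries, although the difference of -0.48 on the log2(TPM + 1) scale had an adjusted p of 0.784 in limma. All 7 myeloid markers examined were at 1 TPM or more in every library, while none of 3 fibroblast and 3 B cell markers was, MS4A1 being at 0 in all 4. Of markers of other cells, 1 of 3 T cell, 1 of 3 epithelial and 2 of 3 erythroid markers reached 1 TPM in every library. The erythroid sum was 378 and 177 TPM for sgKAT6A, against 106 and 393 TPM for EV, with overlap between the groups. Replicate 2 of sgKAT6A stood apart in ribosomal RNA. The nuclear-encoded 18S rRNA symbol RNA18SN5 was at 12031 and 340 TPM in sgKAT6A cells, against 10401 and 13751 TPM in EV cells. The RNAs of the mitochondrial ribosome did the same. RNR1, the small-subunit rRNA, was at 3412 and 187 TPM in sgKAT6A cells, against 2090 and 3641 TPM in EV cells, and RNR2, the large-subunit rRNA, was at 6661 and 364 TPM in sgKAT6A cells, against 4087 and 6881 TPM in EV cells. In the other 3 libraries the sgKAT6A and EV values of these rRNAs overlapped. The members' median and their count without overlap are also given below without this library. So are the medians of the gene lists, and the differences of most named members where it moves them by over 1.5 times. Medians by origin, level, structure, promoter letters or head-to-head start, and the other counts without overlap, are not, and they may rest on it.

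The promoters of these genes are shown first, because many of them carry the same few letters close to the transcription start. RefSeq promoter windows on GRCh38.p14, each from 250 bases before to 50 bases after the start, were matched for 69 of the 78 genes, and both strands were searched. The letters AAGATGGC, a core of the motif bound by the zinc finger protein YY1, were in 20 of the 69 windows, or 29%. They were in 3.03% of all 27305 windows and in 5.97% of the 8610 windows of protein-coding genes tested. The share was 28.6% of 42 MRPL windows and 29.6% of 27 MRPS windows. Of the 21 matches, 15 (71.4%) began at or after the transcription start, against 64.0% of the matches in protein-coding genes tested. All 15 of these read in the direction of the gene, which was not counted for other genes, and in 12 of them the ATG inside the letters was the annotated start codon in GENCODE 29. The 10 matches within the first 50 transcribed bases of genes described below are printed here 5′ to 3′ on the gene's strand, 30 bases each, with the matched letters in capitals. In every one but MRPL51 the ATG in the capitals is the annotated start codon.
MRPL22 (chr5:154941093-154941122, plus strand): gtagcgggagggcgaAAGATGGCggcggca
MRPL45 (chr17:38297170-38297199, plus strand): tttgcgggaacAAGATGGCagcccccatac
MRPL46 (chr15:88467362-88467391, minus strand): tgggagaacgaAAGATGGCggcgcccgtaa
MRPL50 (chr9:101398577-101398606, minus strand): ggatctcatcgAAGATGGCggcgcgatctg
MRPL51 (chr12:6493223-6493252, minus strand): gggtaaggcccAAGATGGCtgtcttcgcct
MRPS18A (chr6:43687764-43687793, minus strand): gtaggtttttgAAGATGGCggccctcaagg
MRPS18B (chr6:30617852-30617881, plus strand): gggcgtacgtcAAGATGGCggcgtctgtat
MRPS24 (chr7:43869480-43869509, minus strand): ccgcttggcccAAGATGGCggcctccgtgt
MRPS27 (chr5:72320206-72320235, minus strand): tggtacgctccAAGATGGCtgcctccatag
MRPS30 (chr5:44808949-44808978, plus strand): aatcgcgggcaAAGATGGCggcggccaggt

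The letters CCGGAAG, a core of the motif of ETS family factors such as GABP (nuclear respiratory factor 2), were in 29 of the 69 windows. This is 42.0%, against 21.3% of the windows of protein-coding genes tested and 10.7% of all windows, with 40.5% of MRPL and 44.4% of MRPS windows holding them. Both sets of letters were in 8 windows, or 11.6%, against 1.53% of the windows of protein-coding genes tested, and they never shared letters in the 8. The letters GCGCNTGCG of the NRF1 motif were in 15.9% of the members' windows and in 16.1% of those of protein-coding genes tested. CACGTG, the E-box bound by MYC, was in 8.70% and 10.7%, and CCAAT in 29% and 37.1%. A match is a description of the letters and not a site, and no binding was measured. The last 100 bases before the start of 2 genes named below, on the gene's strand with the ETS letters in capitals, show their position.
MRPL58 (chr17:75012570-75012669, plus strand): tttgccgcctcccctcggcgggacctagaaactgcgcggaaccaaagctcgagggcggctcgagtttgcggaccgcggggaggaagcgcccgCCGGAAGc
MRPS18A (chr6:43687792-43687891, minus strand): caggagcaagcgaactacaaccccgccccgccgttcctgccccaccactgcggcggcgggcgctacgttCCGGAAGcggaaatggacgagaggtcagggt

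In mean log2 level, 75 of the 78 mitochondrial ribosomal protein genes were lower in sgKAT6A, against 6624 of the 12603 genes tested. The median amount was small and similar in both subunits, and no member passed the test. All 78 passed the filter of 1 TPM on the mean level and entered the test. Their summed level was 5784 and 4827 TPM in sgKAT6A cells, against 6771 and 5981 TPM in EV cells. Replicate 2 of sgKAT6A was the lowest library and replicate 1 of EV the highest. The groups did not overlap, although replicate 1 of sgKAT6A and replicate 2 of EV lay close together. As a share of protein-coding TPM, the sum was 0.743% and 0.618% in sgKAT6A cells, against 0.834% and 0.733% in EV cells. On that scale the groups overlapped, with replicate 1 of sgKAT6A above replicate 2 of EV. The median log2 difference (sgKAT6A minus EV, log2(TPM + 1)) over the 78 genes was -0.26, a fold of 0.837, with quartiles of -0.36 and -0.20. The median over all 12603 genes tested was -0.016. In bulk RNA, fewer cells of a type and less RNA per cell cannot be told apart.

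No gene of the 12603 tested passed an adjusted p of 0.05 in limma, so 0 of the 78 did, and the percentage called over all genes was 0. The members' adjusted p ran between 0.784 and 0.992. At an unadjusted limma p under 0.05, 4 members were lower and 0 higher, against 1.98% of all genes lower and 1.67% higher. The 4 were MRPL50, MRPL39, MRPL46 and MRPS17, with log2 differences of -0.56, -0.38, -0.49 and -0.66. Without replicate 2 of sgKAT6A these were -0.41, -0.39, -0.31 and -0.40, so the size of all but MRPL39 depended on that library. With 2 libraries against 2, an exact permutation test of a single value cannot give a two-sided p below 0.333.

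Both sgKAT6A libraries were below both EV libraries in 51 of the 78 genes, or 65.4%, and above both in 1. Over all genes tested the shares were 23.2% below and 14.4% above, and over protein-coding genes 25.1% below and 13.5% above. Setting each sgKAT6A library against the EV library of the same replicate number, 71 of the 78 genes, or 91.0%, were lower in both comparisons. Over all genes 36.2% were lower in both, and 32.0% were higher in both, against 1 member. The numbers are not stated to pair the libraries. The count without overlap depended on scaling. With TPM rescaled over protein-coding genes alone, which took 77.9% and 78.1% of TPM in sgKAT6A cells and 81.2% and 81.6% in EV cells, 33 members were below without overlap and 1 above, beside a background of 16.2% below and 19.5% above, and the members' median was -0.20. Without replicate 2 of sgKAT6A the members' median was -0.14, and without replicate 1 of sgKAT6A it was -0.39, so the size of the difference rests on which sgKAT6A library is used. Without replicate 2 of sgKAT6A, 53 of the 78 differences were over 1.5 times smaller in size. With its remaining library set against both EV libraries, 53 genes were below without overlap (33.1% of all genes) and 4 above (27.6%).

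**Figure D1:**
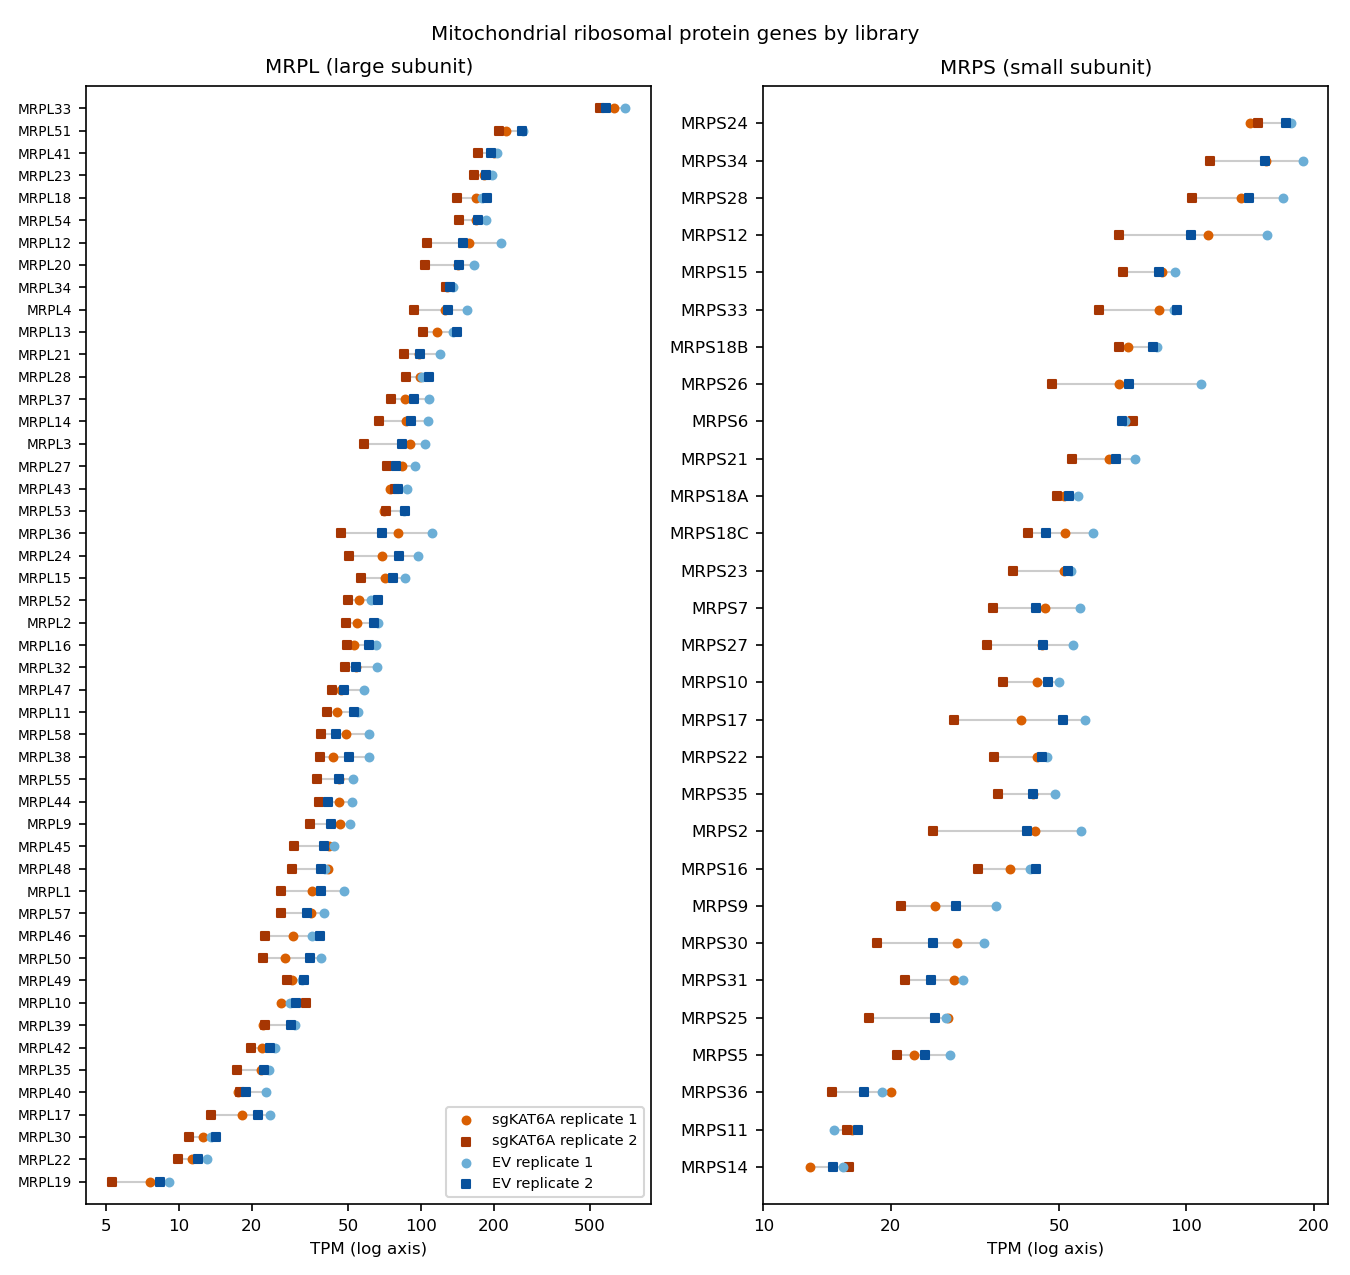
Level of each of the 78 genes in the 4 libraries, in TPM on a log axis, for MRPL genes (left panel) and MRPS genes (right panel), ordered by mean level. Orange and red-brown points are sgKAT6A replicates 1 and 2, and light and dark blue points are EV replicates 1 and 2. Replicate 2 of sgKAT6A is the lowest of the 4 in 69 genes and replicate 1 of EV the highest in 61. Of the 12603 genes tested, these held in 5032 and 3291.

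The order of the 4 libraries was shared by most members. Replicate 2 of sgKAT6A was the lowest of the 4 libraries in 69 genes, replicate 1 of EV was the highest in 61, and both held in 57. Of the 12603 genes tested, replicate 2 of sgKAT6A was the lowest in 5032 and replicate 1 of EV the highest in 3291. Both held in 21.4% of them. The libraries of a group also differed among themselves. The median of replicate 2 minus replicate 1 was -0.27 within sgKAT6A and -0.14 within EV, and 60 of the 78 genes were lower in replicate 2 of both groups, against 31.5% of all genes. The difference between the sgKAT6A libraries was therefore as large as that between the groups.

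MYC, a transcription factor known to act on ribosome and mitochondrial genes, also had its lowest level in replicate 2 of sgKAT6A and its highest in replicate 1 of EV, with 107 and 55.7 TPM in sgKAT6A cells, against 161 and 93.0 TPM in EV cells. Unlike the members' summed TPM, its groups overlapped, as replicate 1 of sgKAT6A lay above replicate 2 of EV. The members' share of protein-coding TPM overlapped in the same way. The same lowest and highest libraries were found in 21.4% of all genes tested. The log2 difference of MYC was -0.66 with an adjusted p of 0.784 in limma, and -0.19 without replicate 2 of sgKAT6A. The 10 monocyte maturation markers had a summed level of 1162 and 2470 TPM in sgKAT6A cells, against 570 and 1606 TPM in EV cells. On this sum the groups overlapped, as replicate 1 of sgKAT6A lay below replicate 2 of EV. Of the 9 markers tested, 0 were above without overlap, against 14.4% of all genes tested, and the median log2 difference was 0.91. The sum was higher in sgKAT6A than in EV of the same replicate number, though the numbers are not stated to pair the libraries. In both groups 8 of the 10 were higher in replicate 2 than in replicate 1. None of the 10 was at 0 in every library. The part of MYC and of these markers in the members' difference was not tested.

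**Figure D2:**
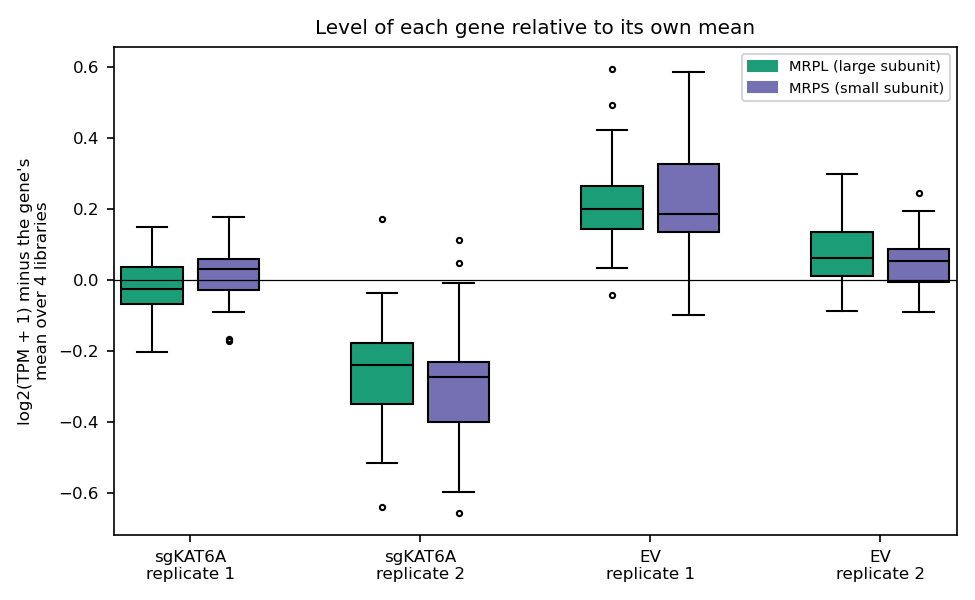
Each gene's log2(TPM + 1) minus its own mean over the 4 libraries, by library, for 49 MRPL genes (green) and 29 MRPS genes (purple). Lines in the boxes are medians, boxes are quartiles, whiskers reach the last value within 1.5 times the box, and circles lie beyond; both subunits are highest in EV replicate 1 and lowest in sgKAT6A replicate 2.

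Large and small subunit genes differed by less than the spread between replicates. The 49 MRPL genes had a median log2 difference of -0.26 and the 29 MRPS genes one of -0.25, a gap of -0.0052, while the replicate SD of that gap was 0.045. Within replicate number 1 the gap was -0.03 and within number 2 it was 0.01. Both sgKAT6A libraries were below both EV libraries in 35 of 49 MRPL genes (71.4%) and in 16 of 29 MRPS genes (55.2%), both above the 23.2% of all genes. The difference between these shares was not tested. Replicates differed more within sgKAT6A than within EV in both subunits. Between the sgKAT6A libraries the median of replicate 2 minus replicate 1 was -0.20 for MRPL and -0.33 for MRPS genes, while between the EV libraries it was -0.13 for MRPL and -0.15 for MRPS genes.

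The summed MRPL level was 4104 and 3476 TPM in sgKAT6A cells, against 4770 and 4244 TPM in EV cells. The summed MRPS level was 1680 and 1351 TPM in sgKAT6A cells, against 2001 and 1737 TPM in EV cells. The ratio of these sums was 2.44 and 2.57 in sgKAT6A and 2.38 and 2.44 in EV. Replicate 2 of sgKAT6A had the highest ratio of sums, and the other 3 libraries lay close together. The ratio of the median MRPL to the median MRPS level was 1.19 and 1.36 in sgKAT6A and 1.18 and 1.31 in EV. By that measure replicate 2 was the higher in both groups, and the groups overlapped. Symbols do not always give the subunit. Structures of the human ribosome place MRPS18A and MRPS30 in the large subunit, and MRPS36 is now known as a component of the 2-oxoglutarate dehydrogenase complex. Grouped in that way, the 51 large subunit genes and the 26 small subunit genes both had a median of -0.26.

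**Figure D3:**
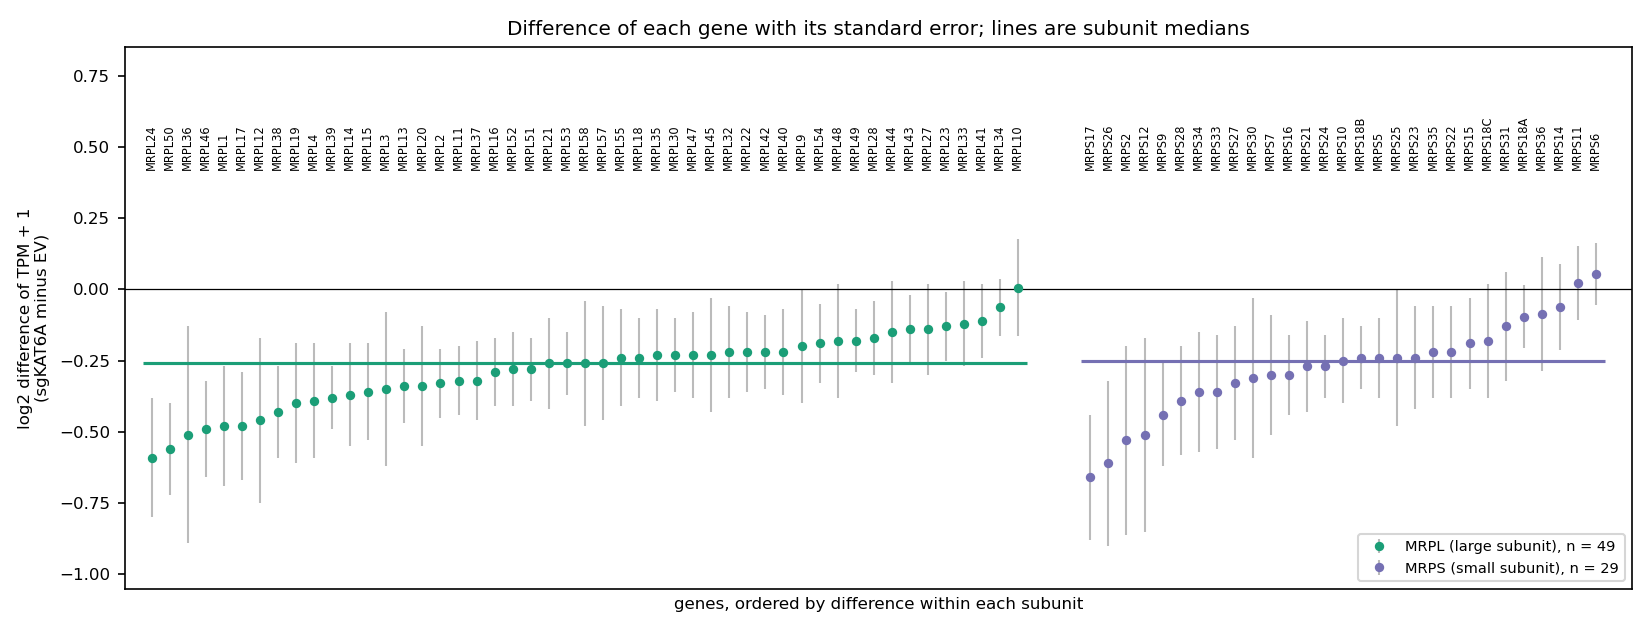
Log2 difference of TPM + 1 (sgKAT6A minus EV) for each gene, with the limma standard error as a bar, ordered within MRPL (green, n = 49) and MRPS (purple, n = 29); thick lines are the medians, -0.26 and -0.25. All but 3 of the 78 points, MRPL10, MRPS11 and MRPS6, lie below 0, against 6624 of the 12603 genes tested.

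Medians were close between members of different origin and level. The 48 genes with a bacterial homolog and the 29 specific to mitochondria both had a median of -0.26. Of them 66.7% and 65.5% were below without overlap, against 23.2% of all genes tested. The highest, middle and lowest 26 genes by mean TPM had medians of -0.26, -0.26 and -0.23. The 20 genes with the YY1 letters had a median of -0.28 and the 49 without them -0.24, with 75% and 59.2% of them below without overlap. The 29 genes with the ETS letters had -0.25 and the 40 without them -0.26, with 69.0% and 60.0% below. These differences were not tested.

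Among the MRPL genes below without overlap, MRPL50, MRPL39, MRPL46 and MRPL24 had the smallest p. MRPL50 (chr9:101387633-101398614 in GENCODE 29 on GRCh38, minus strand) encodes a protein of the large subunit that bacteria lack. It was at 27.4 and 22.3 TPM in sgKAT6A cells, against 38.9 and 34.9 TPM in EV cells. The groups were well apart, with a log2 difference of -0.56 ± 0.16 (SE) and an adjusted p of 0.784 in limma. MRPL39 (chr21:25585656-25607517, minus strand), whose protein has the fold of a tRNA synthetase domain, was at 22.3 and 22.8 TPM in sgKAT6A cells, against 30.2 and 29 TPM in EV cells. Its replicates were close within each group, and it differed by -0.38 ± 0.11. Unlike most members it was not lower in replicate 2 of sgKAT6A than in replicate 1.

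MRPL46 (chr15:88459476-88467419, minus strand), which has a Nudix hydrolase fold, was at 29.6 and 22.8 TPM in sgKAT6A cells, against 35.5 and 38.3 TPM in EV cells, a difference of -0.49 ± 0.17. Its difference was -0.26 within replicate number 1 and -0.73 within number 2. MRPL24, homolog of the bacterial assembly-initiating protein L24, was at 69.1 and 50.4 TPM in sgKAT6A cells, against 97.5 and 81.5 TPM in EV cells, a difference of -0.59 ± 0.21. In both genes the sgKAT6A libraries lay below the EV libraries. MRPL24, MRPS17 and MRPS26 were the 3 members more than 1.5-fold lower, against 3.37% of all genes tested, and 0 members were more than 1.5-fold higher, against 6.09%. Without replicate 2 of sgKAT6A MRPL46 differed by -0.31 and MRPL24 by -0.36.

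MRPS17 (chr7:55951819-55956501, plus strand), homolog of the rRNA-binding protein S17, had the largest difference of the 78 genes. It was at 40.7 and 28.2 TPM in sgKAT6A cells, against 57.5 and 51.0 TPM in EV cells. The groups did not overlap, and the log2 difference was -0.66 ± 0.22 with an adjusted p of 0.784 in limma. It shares exon bases with NIPSNAP2 on the same strand, which was at 26.1 and 27.7 TPM in sgKAT6A cells, against 27.5 and 29.4 TPM in EV cells, and 4 annotated pseudogenes carry its name, so reads may be divided among them. MRPS26, specific to mitochondria, was at 69.3 and 48.1 TPM in sgKAT6A cells, against 108 and 73.2 TPM in EV cells. Replicate 1 of EV was far above the other 3 libraries, and the difference was -0.61 ± 0.29. Without replicate 2 of sgKAT6A MRPS17 differed by -0.40 and MRPS26 by -0.36.

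MRPS9, whose bacterial homolog reaches the tRNA in the peptidyl site, was at 25.5 and 21.2 TPM in sgKAT6A cells, against 35.4 and 28.6 TPM in EV cells (-0.44 ± 0.18). MRPS24, homolog of S3 at the entry of the messenger channel, was at 141 and 148 TPM in sgKAT6A cells, against 176 and 172 TPM in EV cells (-0.27 ± 0.11). In both the groups were apart, and MRPS24 was, like MRPL39, even between replicates. MRPS24 shares exon bases with the readthrough gene URGCP-MRPS24. MRPS12, homolog of S12 in the decoding centre, was at 113 and 69.4 TPM in sgKAT6A cells, against 155 and 103 TPM in EV cells. Its groups overlapped, because replicate 1 of sgKAT6A was above replicate 2 of EV, and its difference was -0.51 ± 0.34, or -0.16 without replicate 2 of sgKAT6A.

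MRPL12, the stalk protein that contacts elongation factors, was at 159 and 107 TPM in sgKAT6A cells, against 215 and 150 TPM in EV cells. MRPL36, a small zinc-binding protein, was at 80.7 and 46.7 TPM in sgKAT6A cells, against 111 and 69.2 TPM in EV cells. Both genes had the same order of libraries as MRPS12, with replicate 1 of sgKAT6A above replicate 2 of EV. Their log2 differences were -0.46 ± 0.29 and -0.51 ± 0.38, or -0.18 and -0.12 without replicate 2 of sgKAT6A. These 3 genes and MRPS26 had the largest differences between the EV libraries within their subunit.

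The levels of the members ran over a wide range. MRPL33, homolog of a small bacterial protein, was the highest in every library, with 631 and 552 TPM in sgKAT6A cells, against 701 and 585 TPM in EV cells. MRPL19, homolog of bacterial L19, was the lowest in every library, with 7.62 and 5.30 TPM in sgKAT6A cells, against 9.14 and 8.38 TPM in EV cells. The groups overlapped for MRPL33 (-0.12 ± 0.15) and did not for MRPL19 (-0.40 ± 0.21). MRPL51, specific to mitochondria, came next to the top with 225 and 210 TPM in sgKAT6A cells, against 266 and 262 TPM in EV cells (-0.28 ± 0.11). MRPL22, whose bacterial homolog lines the exit tunnel, was next to the bottom of the large subunit with 11.4 and 9.92 TPM in sgKAT6A cells, against 13.1 and 12.1 TPM in EV cells (-0.22 ± 0.14). Both were lower in sgKAT6A without overlap. Leaving out replicate 2 of sgKAT6A gave -0.022 for MRPL33, -0.18 for MRPL19 and -0.13 for MRPL22.

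MRPL45, which holds the ribosome to the inner membrane beside the exit tunnel, was at 41.7 and 29.9 TPM in sgKAT6A cells, against 43.7 and 39.7 TPM in EV cells. MRPL44, which has a ribonuclease III fold, was at 46.0 and 38.0 TPM in sgKAT6A cells, against 51.9 and 41.5 TPM in EV cells. MRPL58, a peptidyl-tRNA hydrolase built into the large subunit, was at 49.0 and 38.7 TPM in sgKAT6A cells, against 61.0 and 44.9 TPM in EV cells. In all 3 genes the groups overlapped, and the differences were -0.23 ± 0.20, -0.15 ± 0.18 and -0.26 ± 0.22. MRPL41, specific to mitochondria, was at 201 and 172 TPM in sgKAT6A cells, against 207 and 195 TPM in EV cells, also with overlap (-0.11 ± 0.13). Without replicate 2 of sgKAT6A the log2 differences were 0.00033 for MRPL45, -0.011 for MRPL44, -0.093 for MRPL58 and -0.0016 for MRPL41.

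The 3 homologs of bacterial S18 lie in different places, MRPS18A in the large subunit and MRPS18B and MRPS18C in the small. MRPS18A was at 51.5 and 49.5 TPM in sgKAT6A cells, against 55.3 and 52.9 TPM in EV cells. MRPS18B was at 72.9 and 69.3 TPM in sgKAT6A cells, against 85.3 and 83.5 TPM in EV cells. MRPS18C was at 51.6 and 42.2 TPM in sgKAT6A cells, against 60.2 and 46.6 TPM in EV cells. The groups were apart for MRPS18A and MRPS18B and overlapped for MRPS18C, and the log2 differences were -0.096 ± 0.11, -0.24 ± 0.11 and -0.18 ± 0.20. MRPS18C differed by -0.037 without replicate 2 of sgKAT6A.

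MRPS27, a pentatricopeptide repeat protein, was at 45.5 and 33.7 TPM in sgKAT6A cells, against 53.8 and 45.8 TPM in EV cells (-0.33 ± 0.20). MRPS30 was at 28.8 and 18.6 TPM in sgKAT6A cells, against 33.2 and 25.1 TPM in EV cells (-0.31 ± 0.28). MRPS34, specific to mitochondria, was at 154 and 114 TPM in sgKAT6A cells, against 189 and 154 TPM in EV cells (-0.36 ± 0.21). Only MRPS27 of these 3 was below without overlap. MRPS36 was at 20 and 14.6 TPM in sgKAT6A cells, against 19.1 and 17.3 TPM in EV cells, so that the EV libraries lay between the sgKAT6A libraries (-0.087 ± 0.20). Leaving out replicate 2 of sgKAT6A gave -0.12 for MRPS27, -0.0062 for MRPS30, -0.14 for MRPS34 and 0.13 for MRPS36.

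A few members did not share the lower level. MRPS6 (chr21:34073224-34143034, plus strand), homolog of S6, was at 72.8 and 74.7 TPM in sgKAT6A cells, against 71.4 and 70.6 TPM in EV cells. It was the only member above without overlap, by 0.05 ± 0.11 on the log2 scale with an adjusted p of 0.893 in limma, a difference inside its error. It shares exon bases on its strand with SLC5A3, a myo-inositol transporter gene, which was at 6.48 and 6.99 TPM in sgKAT6A cells, against 3.77 and 4.80 TPM in EV cells. MRPS11, homolog of S11, was at 16.2 and 15.7 TPM in sgKAT6A cells, against 14.7 and 16.8 TPM in EV cells (0.02 ± 0.13), and MRPS14, homolog of S14, was at 12.9 and 15.9 TPM in sgKAT6A cells, against 15.4 and 14.6 TPM in EV cells (-0.06 ± 0.15). The groups overlapped in both, and MRPS14 differed by -0.20 without replicate 2 of sgKAT6A. These are also the lowest MRPS genes by level. MRPL10, which anchors the MRPL12 stalk and is named after its values were seen, was at 26.4 and 33.7 TPM in sgKAT6A cells, against 28.9 and 30.6 TPM in EV cells, the sgKAT6A libraries lying on either side of the EV libraries.

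MRPL46 and MRPS11 start head to head on opposite strands, 34 bases apart in GENCODE 29 and 320 bases apart in the RefSeq windows. Their differences were -0.49 and 0.02. Of the 78 genes, 17 (21.8%) had the start of a protein-coding gene on the opposite strand within 1000 bases upstream, against 10.5% of 10674 protein-coding genes tested. The 17 had a median log2 difference of -0.23. Outside the members, 13 of their partner genes were tested and had a median of -0.03. Of these 2 (15.4%) were below without overlap and 0 above, against 23.2% and 14.4% of all genes tested. NDUFS6, a complex I subunit gene that starts 34 bases from MRPL36, was at 377 and 269 TPM in sgKAT6A cells, against 410 and 357 TPM in EV cells, with overlap between the groups.

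**Figure D4:**
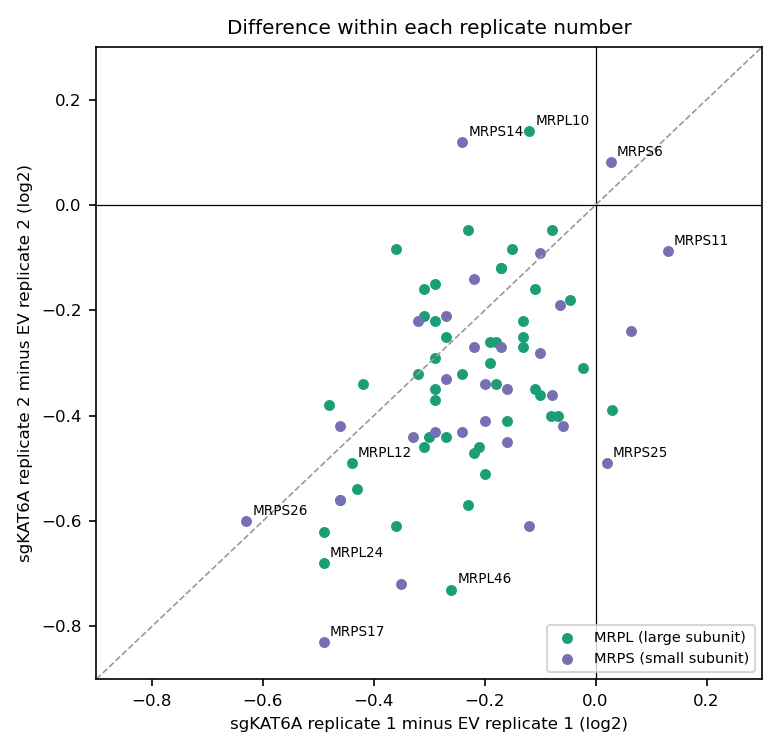
Log2 difference (sgKAT6A minus EV) within replicate number 1 (x axis) and within number 2 (y axis) for 49 MRPL genes (green) and 29 MRPS genes (purple); the dashed line marks equal differences and named points are those at the edges. Most points, 71 of 78, lie where both differences are negative, and MRPS6 is the one point where both are positive.

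The differences within the 2 replicate numbers use separate libraries. Across the 78 genes, which share those libraries and are not independent, Pearson's r between them was 0.47, and across all 12603 genes it was 0.24. Replicate 2 minus replicate 1 of sgKAT6A against the same of EV gave r = 0.58 across the members and 0.45 across all genes. The plot of the differences within replicate numbers shows 71 genes lower in both, MRPS6 higher in both, and 6 with opposite signs, among them MRPL10, MRPS11 and MRPS14.

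Lists of genes that work with the mitochondrial ribosome had medians between -0.30 and -0.15, with 0 calls at an adjusted p of 0.05 in limma in any list. The 5 ribosome proteins under other names had a median of -0.30. Of them 3 (60.0%) were below without overlap and 0 above, against 23.2% and 14.4% of all genes tested. AURKAIP1, a small subunit protein, was at 146 and 121 TPM in sgKAT6A cells, against 187 and 163 TPM in EV cells, and DAP3, a GTP-binding small subunit protein, at 56.9 and 49.0 TPM in sgKAT6A cells, against 64.6 and 65.7 TPM in EV cells. In both the groups were apart, with log2 differences of -0.39 ± 0.16 and -0.30 ± 0.13. Leaving out replicate 2 of sgKAT6A gave -0.25 for AURKAIP1 and -0.19 for DAP3.

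Of 25 genes for ribosome assembly and rRNA modification, 15 (60.0%) were below without overlap and 1, YBEY, above. Over all genes tested the shares were 23.2% and 14.4%. The median of the 25 was -0.27. MALSU1, an assembly factor of the large subunit, was at 38.2 and 33.6 TPM in sgKAT6A cells, against 53.9 and 42.7 TPM in EV cells, and TRMT61B, an rRNA and tRNA methyltransferase, at 8.04 and 6.94 TPM in sgKAT6A cells, against 9.26 and 10.9 TPM in EV cells. Their groups were apart (-0.41 ± 0.17 and -0.38 ± 0.16). Of 16 translation factors 9 (56.2%) were below and 0 above, with a median of -0.20. TUFM, the elongation factor that brings tRNA, was at 188 and 147 TPM in sgKAT6A cells, against 246 and 210 TPM in EV cells, and TACO1, an activator of cytochrome oxidase subunit I translation, at 23.8 and 21.0 TPM in sgKAT6A cells, against 28.2 and 29.3 TPM in EV cells. Both were lower in sgKAT6A without overlap (-0.45 ± 0.18 and -0.35 ± 0.13). TUFM differed by -0.27 without replicate 2 of sgKAT6A.

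Of 12 genes for mitochondrial transcription and RNA processing, 7 (58.3%) were below and 0 above, against 23.2% and 14.4% of all genes tested. Their median was -0.29. TRMT10C, a subunit of mitochondrial ribonuclease P, was at 21.0 and 13.5 TPM in sgKAT6A cells, against 28.2 and 23.1 TPM in EV cells, and SUPV3L1, the helicase of the RNA-degrading complex, at 12.1 and 7.37 TPM in sgKAT6A cells, against 18.1 and 12.8 TPM in EV cells. The groups were apart in both, narrowly in SUPV3L1 (-0.57 ± 0.26 and -0.63 ± 0.31). TRMT10C differed by -0.27 and SUPV3L1 by -0.31 without replicate 2 of sgKAT6A. Of 8 regulators of mitochondrial biogenesis tested, 4 were below and 0 above, with a median of -0.15. PPRC1, a coactivator related to PGC-1, was at 15.8 and 9.57 TPM in sgKAT6A cells, against 20.3 and 18 TPM in EV cells, and GABPB1, a subunit of GABP, at 10.5 and 9.62 TPM in sgKAT6A cells, against 12.7 and 11.8 TPM in EV cells. Neither overlapped between groups (-0.59 ± 0.27 and -0.26 ± 0.13). PPRC1 differed by -0.26 without replicate 2 of sgKAT6A.

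The products of mitochondrial translation join nuclear-encoded subunits of the respiratory chain and ATP synthase. Of 79 such nuclear genes tested, 54 (68.4%) were below without overlap and 1 above, against 23.2% and 14.4% of all genes tested. Their median was -0.19. NDUFA7, of complex I, was at 130 and 137 TPM in sgKAT6A cells, against 176 and 173 TPM in EV cells, and COX6C, of cytochrome oxidase, at 378 and 345 TPM in sgKAT6A cells, against 452 and 465 TPM in EV cells (-0.38 ± 0.11 and -0.34 ± 0.11). Of 83 cytosolic ribosomal protein genes, 43 (51.8%) were below and 3 above, also against 23.2% and 14.4% of all genes tested. Their median of -0.09 was smaller in size. RPS29 was at 4915 and 4873 TPM in sgKAT6A cells, against 6590 and 6354 TPM in EV cells, and RPL38 at 3737 and 3576 TPM in sgKAT6A cells, against 4743 and 4143 TPM in EV cells (-0.40 ± 0.09 and -0.28 ± 0.11). In these 4 genes the groups were apart. The difference between these lists and the mitochondrial ribosomal protein genes was not tested. Medians and counts of all the lists were not computed on TPM rescaled over protein-coding genes alone. That scaling moved the members' median from -0.26 to -0.20 and their count below without overlap from 51 to 33. How far it would move the lists was not tested. Without replicate 2 of sgKAT6A the median of the ribosome proteins under other names was -0.14, of assembly genes -0.12, of translation factors -0.14, of transcription and RNA processing genes -0.14, of regulators -0.15, of respiratory chain genes -0.13 and of cytosolic ribosomal protein genes -0.06.

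**Figure D5:**
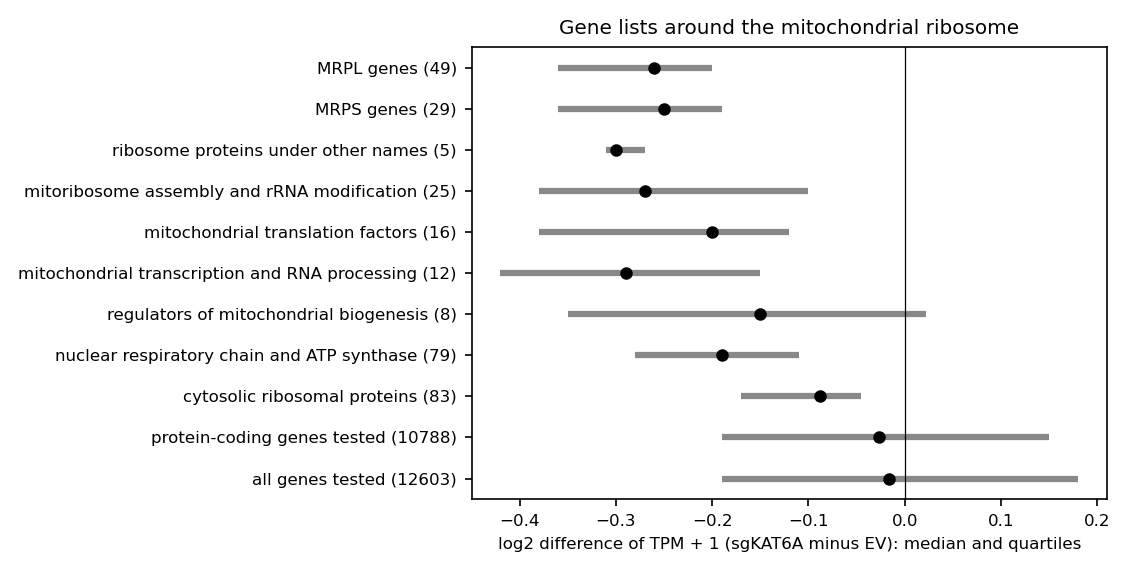
Median (point) and quartiles (bar) of the log2 difference of TPM + 1 (sgKAT6A minus EV) for each gene list, with the number of genes tested in brackets. MRPL and MRPS genes lie at -0.26 and -0.25, cytosolic ribosomal protein genes at -0.09 and all genes tested at -0.016.

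Counting limits apply to several members. The strand used in counting is not given in the sources used here, and 41 of the 78 genes share exon bases with another annotated gene, 16 with a gene on the same strand and 29 with an antisense gene. Pseudogenes with a member's name are annotated for 34 members, 75 in all.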

How the data were processed

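RNA of MOLM-13 cells was sequenced in 2 sgKAT6A and 2 EV libraries, assigned to groups by their titles. The authors deposited 1 table of TPM by gene symbol. Per the submitters' processing notes, Salmon and hg38 were used, and their further settings (version, transcripts, the step to genes) are not stated in the sources used here. TPM sums to 1000000 per library, so counts and depth are unknown and no count model was used. The 12603 genes whose mean reached 1 TPM were tested on log2(TPM + 1) with limma 3.58.1 in R 4.3.3 (variance trend, two-sided, Benjamini-Hochberg over all genes tested, threshold 0.05). The fit was checked on simulated data. Recovery of changes of known size was required there only at 0.1 times the observed replicate spread. Recovery at the observed spread was also computed, with no level required, and is not reported here. How often such changes would be found at the spread of these libraries is therefore not shown. A fold on the log2(TPM + 1) scale understates the change of low genes. Groups "without overlap" have both libraries of 1 group below, or above, both of the other. Gene positions and overlaps came from GENCODE 29 and promoters from RefSeq (GRCh38.p14). Where an rRNA symbol names a gene of the mitochondrial genome, this follows the RefSeq gene table. Members and lists were chosen with earlier results of these data known. Genes named were, beside a set of 13 with known roles, within MRPL and MRPS each the 4 with the smallest p below without overlap, up to 2 above, the 2 highest and 2 lowest by mean TPM, and the 2 with the largest difference between EV libraries, and for each list the 2 with the smallest p. NDUFS6, the overlapping genes and MRPL10 were named after their values were seen. Alternatives were pseudocounts of 0.1 and 5, no filter, a filter at 5 TPM, and other scalings (median of ratios, quantile, protein-coding genes alone). Further ones were limma without the trend, a replicate block, each library left out, subunits by structure, and a smaller set of members. That set left out members with a pseudogene of their name at a mean of 1 TPM or more in the table.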

Additional observations from a re-analysis of the deposited data

How the results depend on the processing

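With groups of 2 libraries and no read depth, single genes could not be resolved here, and sets were described without a test. The members' median log2 difference was negative under every alternative run. It was between -0.14 (without replicate 2 of sgKAT6A) and -0.39 (without replicate 1 of sgKAT6A) over the fits that leave out 1 library, between -0.16 and -0.38 for MRPL genes and between -0.12 and -0.41 for MRPS genes. The 51 genes below without overlap (23.2% of all genes) were 33 with median-of-ratios scaling (18% of all genes), 29 with quantile normalization (19.4%) and 33 with protein-coding genes alone (16.2%). The cause was not tested. With a library left out, 1 library stands for its group and overlap is rarer over all genes. The members below were then 74 without replicate 1 of sgKAT6A (44.1% of all genes), 53 without replicate 2 of sgKAT6A (33.1%), 52 without replicate 1 of EV (37.7%) and 71 without replicate 2 of EV (35.7%), and those above were 1 to 4, against 19.5% to 39.2% of all genes. The gap between the MRPL and MRPS medians was -0.0052, and it had the opposite sign with subunits taken from structures (0.0016). The sign was also opposite without members that have a pseudogene of their name at a mean of 1 TPM or more (0.0013). With each library left out the gap ran between -0.032 and 0.026. All these gaps were smaller in size than the replicate SD of 0.045, and the cause of the changes in sign was not tested.

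Same-numbered libraries are not stated to be pairs, and with only 2 numbers the check of their deviations (r = 0.455 across 12603 genes) cannot show pairing. With a replicate block, limma called 15 genes at an adjusted p of 0.05, none of them a member (lowest member value 0.152), where the fit without it called 0; at an unadjusted limma p under 0.05 it gave 37 members lower, against 10.4% of all genes. Of 585 values of the named genes under 13 alternatives, 7 had the opposite sign. With each library left out in turn, MRPL44 ran between -0.30 and 0.011, MRPS18C between -0.36 and 0.0022, MRPL33 between -0.25 and 0.013 and MRPS11 between -0.068 and 0.11, each with the opposite sign without replicate 1 of EV. MRPL45 ran between -0.47 and 0.00033 and MRPS36 between -0.30 and 0.13 (opposite without replicate 2 of sgKAT6A), and MRPS14 between -0.20 and 0.081 (opposite without replicate 1 of sgKAT6A). The causes were not tested.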

Other observations

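Replicate 2 of sgKAT6A held a set of genes at levels that the other 3 libraries did not share. Of genes at 20 TPM or more in each of the other 3 libraries, 26 were more than 4-fold lower in it, 9 of them protein-coding: EMG1, FTSJ1, MRM2, RRP1, RRP12, RRP1B, RRP36, RRP7A and RRP9. MRM2, a methyltransferase of mitochondrial 16S rRNA and a gene of the assembly list above, was at 55.8 and 6.02 TPM in sgKAT6A cells, against 60.3 and 57.2 TPM in EV cells. What the low values of these symbols come from was not tested, and this holds for MRM2 in that list too. None of the 78 mitochondrial ribosomal protein genes was among the 26, and the lowest of them in that sense, MRPS2, was in this library at 0.599 of its lowest level in the other 3. By the same measure replicate 1 of EV held 12 such genes, 0 of them protein-coding, and the other 2 libraries held 0. These 12 are small nuclear, nucleolar or Cajal body RNAs or small ribosomal RNAs, and each was highest in replicate 2 of sgKAT6A. SNORD3A was at 1583 and 20702 TPM in sgKAT6A cells, against 186 and 2273 TPM in EV cells, and RNU2-1 at 754 and 7982 TPM in sgKAT6A cells, against 159 and 764 TPM in EV cells. These genes were chosen after their values were seen.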
